A study of Macrobrachium rosenbergii with 9 samples.

Results

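The androgenic gland of adult male Macrobrachium rosenbergii, the giant freshwater prawn, was compared with the ovary of adult females across all transcripts of the deposited table. The comparison used 6 of the 9 RNA-seq libraries of the series, 3 of each tissue, chosen by the tissue named in their labels. All carried the strain name CMr1, no treatment or allele was given, and the remaining 3 libraries, of testis, entered no test here. The study's title names a search for candidate regulators of sex determination in adult gonads. Of the 21071 transcripts in the table, 15827 had enough counts in the 6 libraries to be tested, 4503 had too few and 741 had none.

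The androgenic gland is an endocrine organ of male crustaceans. In prawns it lies along the sperm duct and releases an insulin-like hormone that drives and maintains male development, and removing the gland or silencing the hormone can turn a young male prawn towards the female form. The ovary holds oocytes, which store RNA and yolk for the embryo, together with follicle cells. The comparison therefore sets a secretory organ against a germ line organ as well as male against female, and sex and tissue cannot be told apart in it. In whole tissue, fewer cells of a type and less RNA per cell cannot be told apart either.

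The files pair no transcript ID with a gene name, and 0 IDs were found among the 31758 genes of the RefSeq table, so no transcript can be given a role and the identity of the tissues could not be checked against marker genes. Each ID carries a sex word (14774 female, 6297 male), a number written after the letter f, and a length. In the naming used for long-read transcript sequencing the f number counts the full-length reads behind a transcript, but no source used here states this for these IDs. Whether the sex words name long-read libraries made from the same tissues is not given either, so they are no independent evidence of direction. Several transcripts may belong to 1 gene or to near-identical copies and share its reads, so the counts below are of transcripts.

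The 6 libraries held between 9924471 and 11231573 counts. Across the tested transcripts, log2(TPM + 1) correlated at 0.936 to 0.959 between gland libraries, 0.91 to 0.938 between ovary libraries and 0.212 to 0.298 between the tissues, which describes these libraries only, since transcripts are not replicates. TPM here is the count divided by transcript length and rescaled so that each library has the same sum. Androgenic gland 2 stood apart in being the lowest gland library for 74.4% of the 2925 transcripts that averaged 10 TPM or more in gland. Its 10 highest transcripts held 58.3% of its TPM, against 52.1% and 46.6% in androgenic gland 1 and 3. With the same sum in each library, that leaves less for its other transcripts. Ovary 1 stood apart in holding the gland's most abundant transcript at 2070 TPM, against 1.52 and 16.1 TPM in the other ovary libraries. The labels name no animals, so the p-values cover only the spread among these libraries, which may be technical.

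The androgenic gland held much of its TPM in a few short transcripts, whereas the ovary spread its TPM over many more of the table's transcripts. Only 9, 6 and 14 transcripts held 50% of the TPM in androgenic gland 1 to 3, compared with 485, 434 and 434 in ovary 1 to 3. The mean difference between gland and ovary was -441.3 transcripts. The gland mean of 9.667 depended on the measure: it was 27 without division by length and 94.67 without the 19 transcripts that took over 1% of counts in any library, against ovary means of 555.7 and 513.3. The single highest transcript took 19.5% ± 4.92 of the TPM in gland and 3.2% ± 0.442 in ovary (SD, n = 3 each), and the 100 highest took 77.93% ± 5.39 and 28.2% ± 0.964. Androgenic gland 1 to 3 had 3032, 2262 and 3310 transcripts at 10 TPM or more, and ovary 1 to 3 had 9093, 8865 and 8876. A level of 10 TPM corresponds to 155 to 168 counts in gland and 100 to 118 counts in ovary for a transcript of median length. Counting error thus does not limit this number. The table itself holds 14774 female-word and 6297 male-word transcripts. Female-word ones held 32.3% ± 3.65 of the TPM in gland and 70.5% ± 0.854 in ovary (SD, n = 3 each). How far this make-up of the table sets the numbers above was not tested.

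The tissues did not overlap in either measure. An exact permutation test, two-sided, gave p = 0.1 for both, the smallest value that 3 against 3 libraries allow, and 0.1 after Benjamini-Hochberg adjustment over these 2 tests. At the top of the range the tissues came closer, with 81 to 119 transcripts at 1000 TPM or more in gland and 125 to 136 in ovary. The mean transcript length weighted by TPM was 1020 ± 55.5 bases in gland and 1456 ± 31 bases in ovary (SD, n = 3 each). The median length of transcripts at 100 TPM or more, which gives each the same weight, was 1257 ± 48.3 and 1305 ± 35.6 bases, and there the tissues overlapped. The values are shares of a total, so the few dominant gland transcripts lower every other gland value. Without the 19 dominant transcripts, 4989 ± 367 transcripts reached 10 TPM in gland and 9120 ± 118 in ovary.

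**Figure D1:**
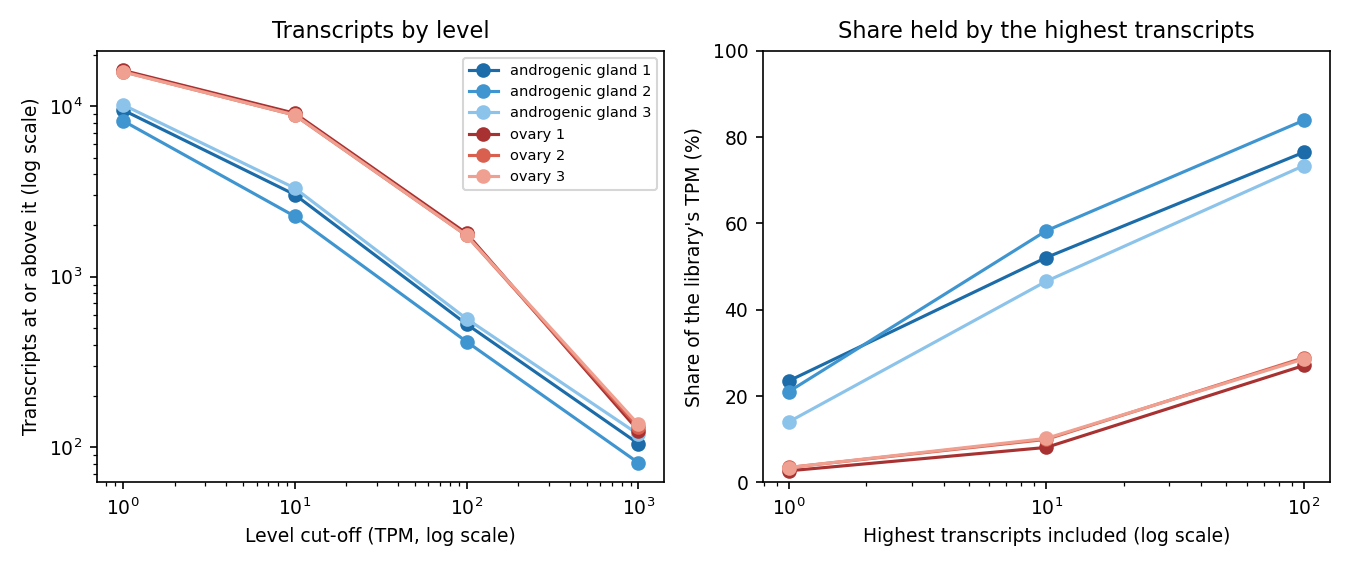
Left, number of transcripts at or above 1, 10, 100 and 1000 TPM in each library (both axes logarithmic). Right, share of each library's TPM held by its 1, 10 and 100 highest transcripts (x axis logarithmic), where the 3 gland libraries lie between 73.4% and 83.9% for the 100 highest and the 3 ovary libraries between 27.1% and 28.9%.

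The 20 highest transcripts of the androgenic gland together held 59.7%, 69.2% and 54.1% of the TPM in androgenic gland 1 to 3. In ovary 1 to 3 they held 2.96%, 3.46% and 3.46%. Most of that ovary share came from a 1295-base transcript with the female word, at 26900, 34600 and 34500 TPM in ovary 1 to 3. The 20 were short, with a median length of 780.5 bases, and 17 of the 20 carried the male word. Of the 20, 15 stayed under 10 TPM in every ovary library although their gland means lay at 6260 TPM or more. All 20 were called higher in gland under TMM scaling, explained below, where 21.9% of all tested transcripts were. The 1295-base one was not called under scaling to library size (log2 fold change 0.13, edgeR, adjusted p = 0.87). The 20 were picked for a high gland level, which favours a call of higher.

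The highest of them, transcript_HQ_Female_transcript29686/f13p0/482, had 235000, 210000 and 140000 TPM in androgenic gland 1 to 3, against 2070, 1.52 and 16.1 TPM in ovary 1 to 3. Every gland library lay above every ovary library, and ovary 1 was far above the other ovary libraries. TMM scaling sets the libraries to a common level on the assumption that most transcripts do not differ between them. On that scale the log2 fold change came to 10.51 (rough SE 3.09, adjusted p = 0.021 by the quasi-likelihood test of edgeR, Benjamini-Hochberg over all tested transcripts). Leaving out ovary 1 raised it to 16.6 (edgeR, adjusted p = 0.0037), and over the 18 alternative settings the adjusted p ranged from 2.6e-09 to 0.043.

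The next, transcript_HQ_Male_transcript11731/f2p0/617, had 73100, 137000 and 92700 TPM in androgenic gland 1 to 3, against 289, 1.79 and 10.5 TPM in ovary 1 to 3. The log2 fold change came to 12.39 (rough SE 2.63, edgeR, adjusted p = 0.0057), and 16.2 without ovary 1 (adjusted p = 0.003). Over the 18 alternatives its adjusted p lay between 1.2e-17 and 0.019. Again the tissues were apart and ovary 1 was the highest ovary library.

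Ovary 1 did not hold the gland's abundant transcripts in a common proportion. As a percent of the gland mean, it held 1.06% of the 482-base transcript, 0.287% of the 617-base transcript, 0.336% of a 694-base transcript with the male word and 3.28% of an 881-base transcript with the female word. It had 0 counts of a 758-base transcript with the male word, which stood next in gland at 41700, 49900 and 50900 TPM in androgenic gland 1 to 3 and whose f number, 3085, was the largest of the 20. These transcripts were singled out after their values were seen. The 881-base one also stood at 0.294% and 0.268% of its gland mean in ovary 2 and ovary 3. For the 482-base one these shares were 0.000779% and 0.00825%. Ovary 3 had at least some count of all 20, at a median of 1.27 TPM among the 20, whereas 10 of the 20 had 0 counts in ovary 1 and 8 in ovary 2. Whether such traces came from other tissue or from exchange of reads between libraries was not tested.

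**Figure D2:**
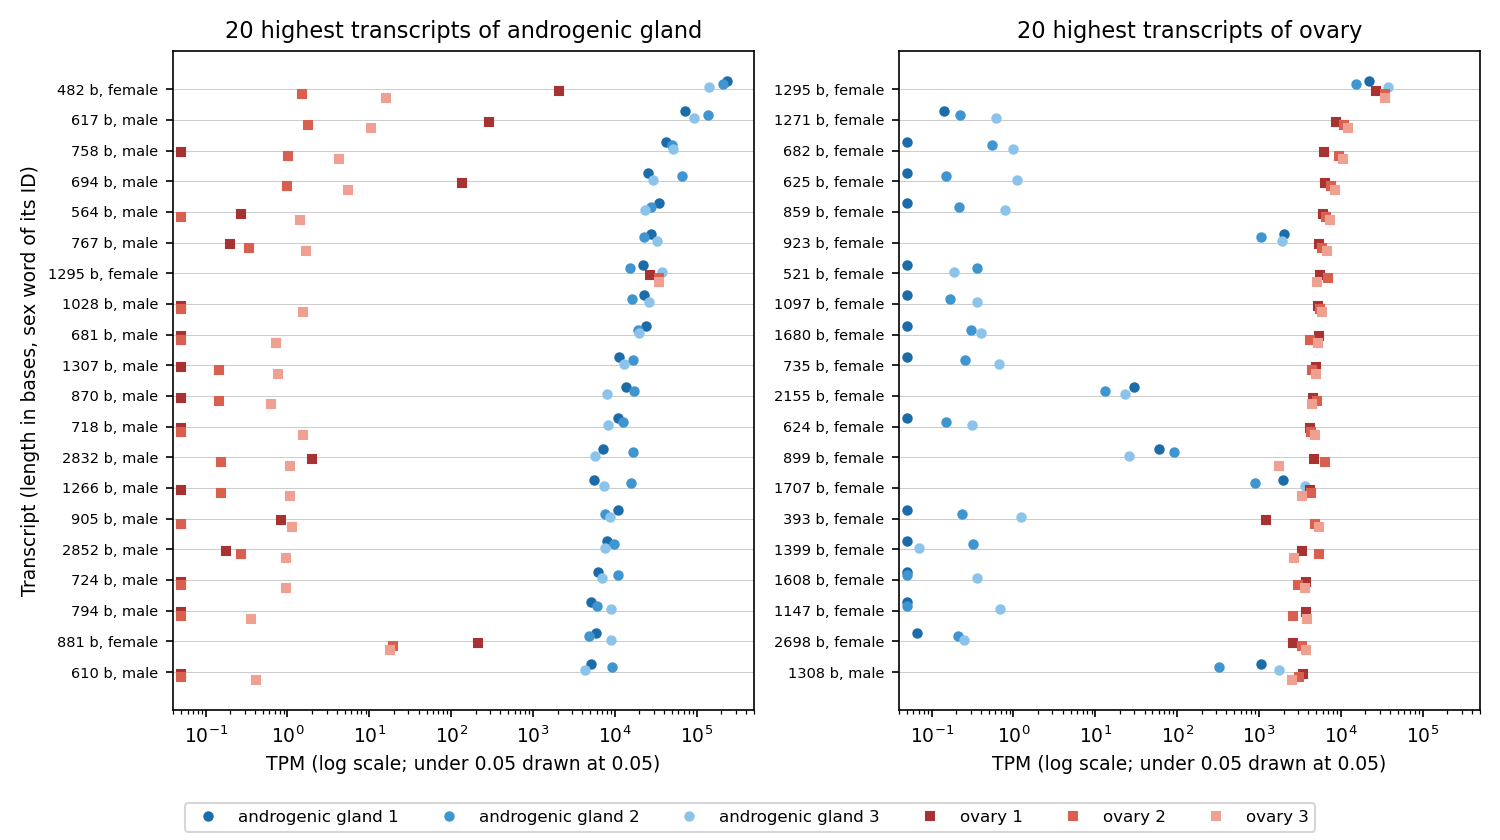
TPM per library (log scale, values under 0.05 drawn at 0.05) of the 20 transcripts with the highest mean in androgenic gland (left) and in ovary (right), named by length in bases and sex word, with circles for gland and squares for ovary libraries. On the left 15 of 20 transcripts stay under 10 TPM in all ovary libraries, and on the right 14 of 20 stay under 10 TPM in all gland libraries.

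The ovary's 20 highest transcripts held 11.7%, 13.9% and 13.8% of the TPM in ovary 1 to 3, a far smaller share than the gland's 20 had in gland. They were longer, with a median of 1122 bases, and 19 of the 20 carried the female word. In gland they held 2.72%, 1.78% and 4.51% of the TPM, most of it from transcripts abundant in both tissues. Against 41.0% of all tested transcripts, 16 of the 20 were called lower in gland, 1 was called higher and 3 were not called. The 20 were picked for a high ovary level, which favours a call of lower. Of the 20, 14 stayed under 10 TPM in every gland library, and 4 reached 1000 TPM in at least 1 gland library.

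Among those lower in gland the most abundant was transcript_HQ_Female_transcript16105/f34p0/1271, at 8630, 10900 and 12300 TPM in ovary 1 to 3, against 0.142, 0.221 and 0.612 TPM in androgenic gland 1 to 3. The tissues were separated by more than the spread within either, with a log2 fold change of -12.70 (rough SE 0.73, edgeR, adjusted p = 0.00011). It had 13 counts over the gland libraries. After TMM scaling the ovary held 7400 times as much, with a 95% interval of 4320 to 13900 that covers counting error only.

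The second, transcript_HQ_Female_transcript27549/f8p0/684, had 6280, 9650 and 10600 TPM in ovary 1 to 3 and 0, 0.548 and 0.997 TPM in androgenic gland 1 to 3. With 11 gland counts in all, the ovary held 3920 times as much (counting interval 2190 to 7850), and the log2 fold change came to -11.72 (rough SE 1.03, edgeR, adjusted p = 0.00024). Both transcripts were called under all 18 alternatives, with adjusted p of at most 0.0021 and 0.0027. Ovary 1 was the lowest ovary library for both.

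Across all tested transcripts, 3462 were called higher and 6492 lower in androgenic gland than in ovary, 21.9% and 41.0% of the 15827 tested and 62.9% together, by edgeR at an adjusted p under 0.05 and a log2 fold change of at least 1. Those lower in gland lay further out: their median log2 fold change was -4.30, and that of the higher ones 2.24. Of the lower ones 2571 had 0 counts in every gland library, and with these set to a bound of 3 counts over the tissue the median was -3.80. Among the higher ones 119 had 0 counts in every ovary library. Of all female-word transcripts tested, 2421 had 0 counts in gland and 10 in ovary, and of the male-word ones 153 and 109. In TMM-scaled CPM, 3 counts equal 0.406 to 0.707 in a gland library and 0.152 to 0.165 in an ovary library. A gland count of 0 thus sets a looser bound than an ovary count of 0. In TMM-scaled CPM the tissues did not overlap for 26.9% of tested transcripts with gland above and 48.2% with gland below, and 2031 of these were not called.

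The size of the gland-higher group depended on how the libraries were scaled. TMM scaling assumes that most transcripts do not differ, yet 62.9% were called under it and 37.1% were not, so that assumption is in doubt here. Scaling to library size alone gave 1120 higher (7.08%) and 10419 lower (65.8%), and moved the median log2 fold change of all tested transcripts from -0.66 to -2.29, a shift of 1.64. The gland-higher share of calls was then 9.71% in place of 34.8%. Of the transcripts, 1120 were higher and 6492 lower under both scalings and 0 changed sides. A further 2342 were higher under TMM only, and 3927 were lower under library size only. Leaving out each library in turn gave 3154 to 3418 higher and 6219 to 6644 lower.

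**Figure D3:**
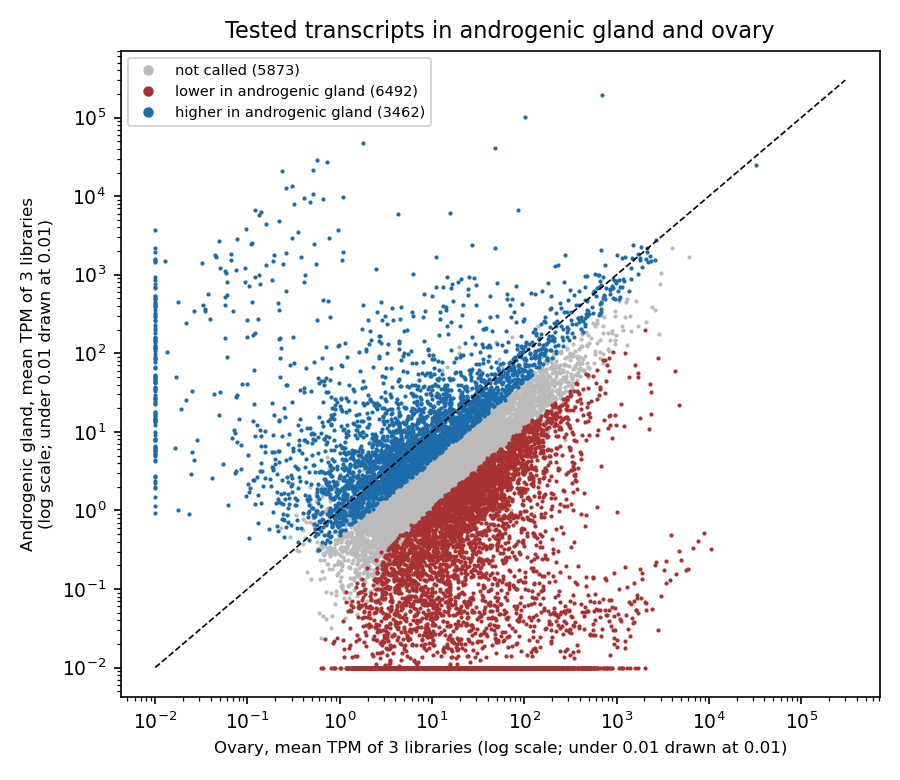
Mean TPM of each of the 15827 tested transcripts in ovary (x) and androgenic gland (y), both logarithmic, with values under 0.01 drawn at 0.01, coloured by call, and a dashed line at equal TPM. Calls use TMM scaling and TPM does not, so transcripts not called lie mostly below the dashed line, and 2571 of the lower transcripts lie on the bottom edge or near it with 0 gland counts.

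The stronger the difference, the more the sex word followed the tissue. Of all tested transcripts 71.1% carried the female word. Among those higher in gland by under 4-fold it was 66.3%, from 4-fold to under 32-fold 57.1%, from 32-fold to under 1024-fold 27.3%, and at 1024-fold or more 1.78%, or 3 of 169 transcripts. Among those lower in gland the female share went the other way over the same bins, from 68.3% through 81.4% and 94.5% to 98.1%, or 159 of 162. Transcripts with a modest difference thus carried the words in nearly the proportion of the table. Under scaling to library size the same order held in both directions, from 61.9% through 40.9% and 18.4% to 0 of 135 transcripts higher, and from 68.5% through 70.7% and 91.3% to 98.2% of those lower.

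**Figure D4:**
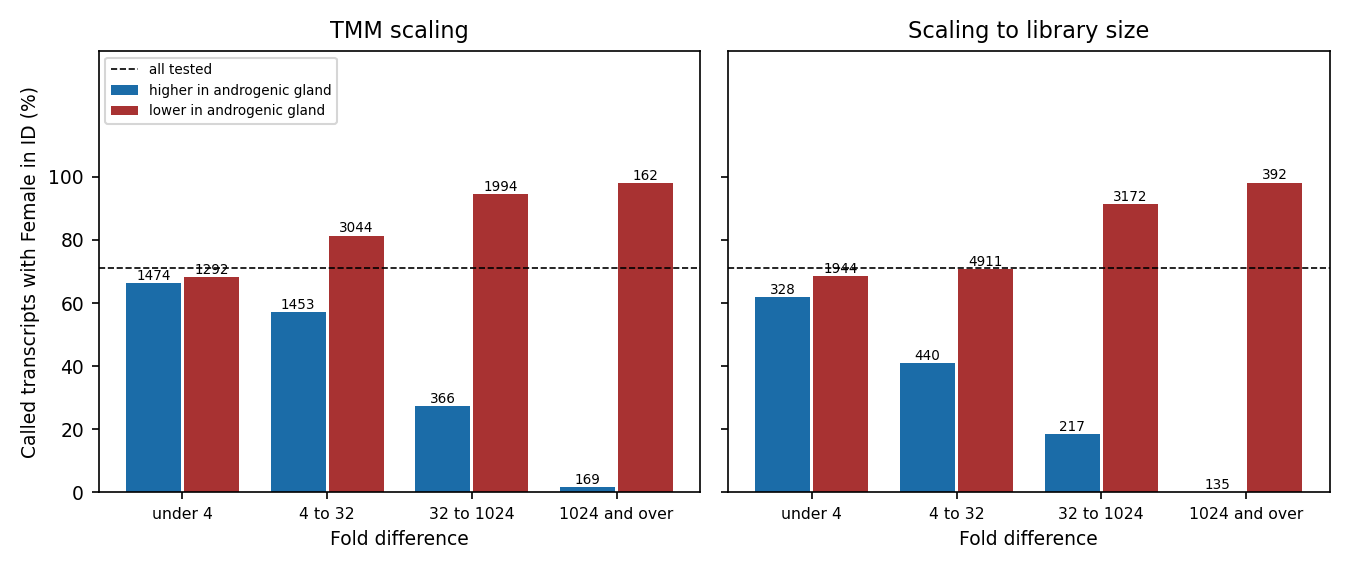
Share of called transcripts whose ID carries the female word, by fold difference and direction, under TMM scaling (left) and scaling to library size (right), with the number of transcripts above each bar and a dashed line at the 71.1% of all tested. The blue bars (higher in androgenic gland) drop from 66.3% to 1.78% on the left while the red bars (lower) climb from 68.3% to 98.1%.

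In the female-word group 1910 transcripts were higher and 5404 lower in gland, of 11251 tested. In the male-word group 1552 were higher and 1088 lower, of 4576 tested. Scaling to library size turned the balance of the male-word group to 697 higher and 2336 lower. Its most abundant members kept theirs: of 64 male-word transcripts averaging 1000 TPM or more over the 6 libraries, 56 were higher and 2 lower in gland under TMM, and 39 and 7 under library size. Of 42 female-word transcripts at that level 10 were higher and 29 lower, and 5 and 31 under library size. Neither count was tested against the background, since level, word and call all draw on the same libraries or sources.

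Length went with direction differently in the 2 word groups. Of 2520 tested female-word transcripts under 1000 bases 66.7% were lower in gland and 11.6% higher. Their median log2 fold change was -4.06, and -3.27 once transcripts at 0 counts were set to their bound. The share that was lower fell to 48.7% from 1000 to under 2000 bases and to 34.9% at 2000 bases and over. Among 652 short male-word transcripts 43.9% were higher and 20.9% lower, against 33.5% and 21.0% of the 1856 at 2000 bases and over. The 2068 male-word transcripts between these lengths stood at 31.2% and 27.2%, so the male-word shares followed no order with length. Scaling to library size left the shortest male-word class with the largest gland-higher share of calls of these 6 classes, at 36.4%, but turned its balance to 161 higher and 281 lower. Of the 2574 tested transcripts with 0 counts in gland, 1125 were under 1000 bases, and 1100 of these carried the female word. Of all 15827 tested, 3172 were under 1000 bases.

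**Figure D5:**
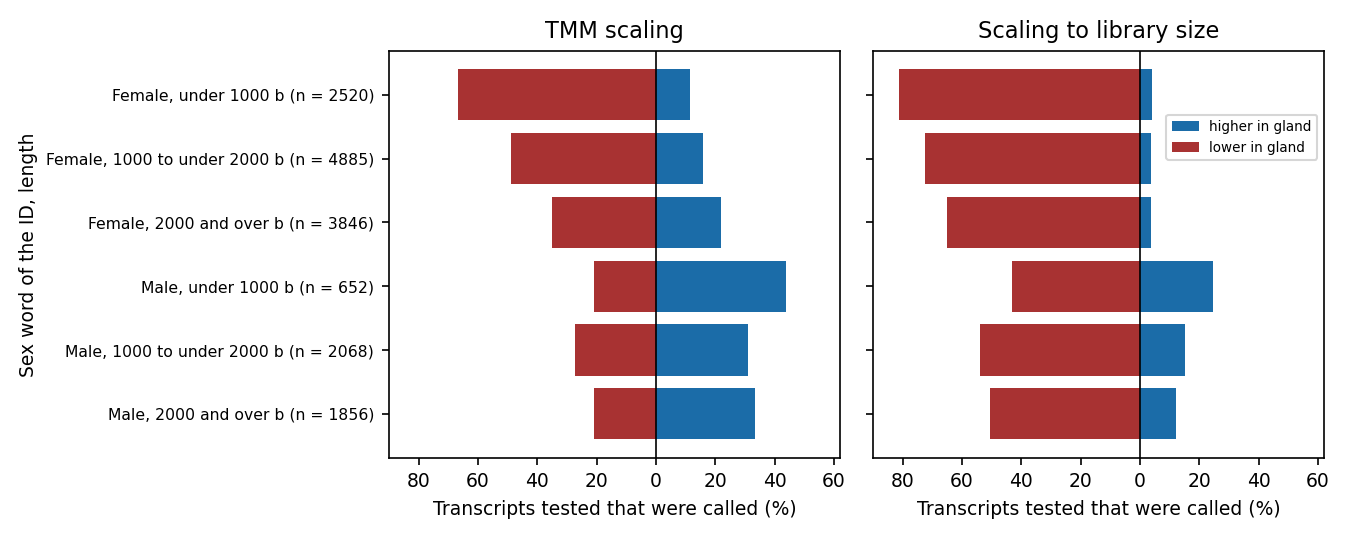
Percent of tested transcripts called higher (blue, to the right) or lower (red, to the left) in androgenic gland by sex word and length class in bases, under TMM scaling (left) and scaling to library size (right). In the female-word classes the red share shrinks with length from 66.7% to 34.9% under TMM, and in all 6 classes the red share exceeds the blue one under library size.

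The f number went with the level in both tissues for the male word, and for the female word with the level in ovary and hardly in gland. Across 11251 female-word transcripts Spearman's rho between the f number and mean TPM was 0.33 in ovary and 0.033 in gland, and across 4576 male-word transcripts 0.31 in gland and 0.29 in ovary. These describe the table, since the transcripts share libraries. For the female word, median ovary TPM went from 9.12 at an f number of 2 to 56.1 at 10 and over, while median gland TPM was 0.932 and 1.29. For the male word, median gland TPM went from 2.93 to 19 and median ovary TPM from 8.63 to 50.2. Among female-word transcripts with an f number of 10 and over, 9.14% were higher and 60.0% lower in gland, compared with 19.6% and 44.2% at an f number of 2.

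In the table as a whole, transcripts present in 1 tissue and nearly missing from the other were far more numerous on the ovary side. Those at 10 TPM or more in every ovary library and under 1 TPM in every gland library numbered 2134, of which 92.8% carried the female word, and they held 32.2% to 35.1% of the ovary TPM and 0.0152% to 0.0246% of the gland TPM. The reverse set numbered 156, of which 4.49% carried the female word. Those 156 held 17.8%, 19.4% and 18.2% of the TPM in androgenic gland 1 to 3 and at most 0.00211% in an ovary library, with a median gland level of 351 TPM against a median ovary level of 44.7 TPM in the ovary set. The gland set was thus small with high levels and the ovary set large with moderate levels. Female-word transcripts, 71.1% of all tested, made up 1981 of the ovary set and 7 of the gland set. The excess on the ovary side lay among them, since the male-word remainders of the sets were of similar size. Each set is defined against the other tissue alone: a 681-base male-word member of the gland set, chosen after its values were seen, had 2450, 11000 and 3030 TPM in testis 1 to 3. Without the 19 dominant transcripts the sets numbered 196 and 1829.

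A further 1537 transcripts reached 10 TPM or more in all 6 libraries, of which 49.6% carried the female word, against 71.1% of all tested. They held 22.3%, 14.2% and 26.8% of the TPM in androgenic gland 1 to 3 and 37% to 38.7% in ovary. At 100 TPM or more in all 6 libraries stood 173 transcripts, whose median length was 968 bases and of which 53.2% had an f number of 10 and over, against 10.9% of all tested. On the TMM scale 137 of the 173 were called higher in gland and 1 lower, with a median log2 fold change of 1.73. Under scaling to library size 27 were higher, 21 lower and 125 not called, with a median of 0.06.

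The most abundant of these, a 1295-base transcript with the female word that was singled out after its values were seen, shows the dependence on scale. It had 22100, 15400 and 37700 TPM in androgenic gland 1 to 3 and 26900, 34600 and 34500 TPM in ovary 1 to 3, so the tissues overlapped in TPM, though not in TMM-scaled CPM. On the TMM scale it was called higher in gland, with 1.78 as log2 fold change (edgeR, adjusted p = 0.048), whereas under library size the value was 0.13 (adjusted p = 0.87). Of the 173, 27 were called higher and 1 lower on both scales. An 1874-base male-word transcript, also chosen after its values were seen, stood at 2100, 1470 and 1830 TPM in gland and 341, 311 and 172 TPM in ovary, with log2 fold changes of 4.94 and 3.23 on the respective scales (edgeR, adjusted p = 0.00032 and 0.00049). The 1 transcript called lower, of 534 bases with the female word, stood at 307, 120 and 167 TPM in gland and 1740, 2460 and 1820 TPM in ovary.

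Whether gland or ovary libraries varied more among themselves depended on the measure. Over transcripts averaging 10 TPM or more in the tissue, the median SD of log2(TPM + 1) was 0.528 in gland (2925 transcripts) and 0.271 in ovary (9175 transcripts), and 45.9% and 72.8% of transcripts stayed within a 2-fold range. edgeR's biological coefficient of variation, fitted with TMM scaling within each tissue, was closer, at 0.383 for gland and 0.37 for ovary. The correlations between libraries were 0.936 to 0.959 within gland and 0.91 to 0.938 within ovary. No test of this difference was made.

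Some transcripts were nearly missing from a single library of a tissue in which the other two held them well. By the measure of at least 20 TPM in both others and at most 1/20 of the lower of them, 11 transcripts were missing in androgenic gland 2, 3 in androgenic gland 1 and 6 in androgenic gland 3. In ovary there were 16, 17 and 34 such transcripts in ovary 1 to 3. More transcripts could qualify in ovary, where 9175 averaged 10 TPM or more, against 2925 in gland. The counts are therefore no comparison of the tissues. A 1051-base male-word transcript had 4570, 15.9 and 12700 TPM in androgenic gland 1 to 3, and a 551-base one had 1320, 9080 and 38.8 TPM. Both were under 1 TPM in every ovary library and were called higher in gland (edgeR, adjusted p = 0.0025 and 0.0033). In ovary, a 1377-base female-word transcript had 827, 923 and 14.5 TPM in ovary 1 to 3 and 0 in every gland library (edgeR, adjusted p = 0.01). These examples are the most abundant of their library and were picked by their values.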

How the data were processed

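The series' 1 table, deposited by the authors, holds an estimated count for each transcript and library beside a transcript length. Per the file headers its columns are read counts, but only 46.87% to 64.34% of a library's values were whole numbers, so they were taken for expected counts, as an estimating tool writes them, and rounded for the tests. The submitters' processing notes name Bowtie 0.12.2, DESeq 1.10.1 and mm8, a mouse build, with no roles. How reads were assigned to transcripts, and whether strand was used, was not given in the sources used here. Per the labels' protocols, tissues were dissected from ice-anaesthetised prawns and libraries made with a directional kit.

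Transcripts were filtered with filterByExpr (minimum count 10, minimum total 15), which kept 99.49% to 99.81% of each library's counts. TMM factors ran from 0.4088 (androgenic gland 2) to 0.6653 in gland and from 1.769 to 1.858 in ovary. With edgeR 4.0.16 in R 4.3.3, quasi-likelihood F tests were run on the 6 libraries with no covariate (4 residual degrees of freedom, prior count 1). The fit was also run on simulated counts in which few transcripts changed, as many up as down. That run does not cover the many unbalanced differences between these tissues. A rough SE is the size of a log2 fold change divided by the root of its F value. Ratios use counts over a tissue with exact binomial intervals at 95%, which, like the floor of 3 counts, cover counting error only. A floor of 3 counts equals 0.152 to 0.707 TMM-scaled CPM in a library. Permutation tests used scipy 1.17.1.

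The text names at most 2 IDs in each direction, those with the highest TPM in the higher tissue among called HQ transcripts whose tissues did not overlap. The comparison, classes and naming rule were chosen with earlier results of these data known. A list of tissue and cell type genes could not be used for want of gene names. Alternatives were other scalings, filters and tests (DESeq2 1.42.0, limma 3.58.1), a replicate block and leaving out each library.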

Additional observations from a re-analysis of the deposited data

How the results depend on the processing

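Scaling to library size gave 1120 transcripts higher and 10419 lower in gland, 423 female-word and 697 male-word ones higher and 2336 male-word ones lower. Library size without the 19 dominant transcripts gave 1959 higher, 938 female-word and 1021 male-word ones higher and 1760 male-word ones lower. The other alternatives for these counts moved none of them by over 1.5 times, leaving out a library included (female-word 1663 to 1837 higher and 5216 to 5531 lower, male-word 1419 to 1585 and 1003 to 1113). The shares of higher calls under the remaining scalings were 33.3% (RLE) and 41.6% (upper quartile). DESeq2 called 3464 higher and 6795 lower. With the replicate block there were 3167 higher and 6187 lower. Same-numbered libraries of gland and ovary deviated from their tissue means with correlations of -0.13, -0.025 and -0.0066 over 15827 transcripts. Differently numbered ones gave -0.081 to 0.098. The deviations are taken from means of only 3 libraries, so these values cannot decide whether the numbers pair the libraries.

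The gland minus ovary difference in transcripts at 10 TPM or more was -6077. It was -5097 without division by length, -4131 without dominant transcripts and -5523 without transcripts under 500 bases, and at cut-offs of 1 and 100 TPM it was -6721 and -1259. The difference in transcripts that hold 50% was -528.7, -418.7 and -413.3 under the first 3 of these. With 2 libraries in a tissue the smallest exact p is 0.2. Leaving out a library gave 163 to 184 transcripts at 10 TPM in gland and under 1 TPM in ovary, and 2156 to 2411 of the reverse kind. The sets ask for a level in every library, so leaving a library out could only keep or enlarge them. This alternative, like that without dominant transcripts for these sets, was chosen after seeing the data.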

Other observations

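The testis libraries entered no test, and their values are given only to place the named transcripts and some of the gland's 20 highest. The 482-base gland transcript had 37600, 134000 and 63800 TPM in testis 1 to 3, and the 617-base one 33200, 115000 and 24700 TPM. The 2 ovary transcripts stayed at or under 0.472 TPM in every testis library. Of the gland's 20 highest transcripts, the 758-base male-word one had 4390, 33000 and 7750 TPM in testis 1 to 3, and a 2852-base male-word one had 104, 773 and 110 TPM. These examples were picked by their values. In testis 2 the 2852-base one was the lowest of the 20, and the others lay at 2090 to 134000 TPM. In testis 1 and testis 3 the lowest of the 20 stood at 67.9 and 102 TPM.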
